A study of Mus musculus with 4 samples.

Results

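The connexins Gja1, Gja4, Gja5, Gjb2, Gjb5 and Gjb6 were followed on 4 Agilent 2-colour whole mouse genome arrays. Every non-control probe that the array annotation assigns to one of these symbols was taken, which gave 11 of 41174 distinct probes and 6 of 27745 gene names. The genes were selected on the density and genotype values of these same arrays, with earlier results in view, so their values are a description and carry no test. Mouse embryonic fibroblasts (MEFs) of the C57BL/6J strain were labelled Lats2-/- (KO) or Lats2+/+ (WT). The product of Lats2 is a Hippo pathway kinase, and this pathway keeps the coactivators YAP and TAZ in check in crowded cells. Low density cultures were sampled after 48 h, while still subconfluent, and high density cultures after 3 to 5 days, so density and time in culture cannot be told apart. Each array carried the low and the high density RNA of 1 genotype label, and the second array of each label carried them with the dyes exchanged. The pair of arrays is therefore 1 replicate per genotype label, and the spread between them covers technical error only. In these pools of cells, fewer expressing cells and less RNA per cell cannot be told apart.

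Connexins are membrane proteins with cytoplasmic ends that assemble into hexameric hemichannels, and hemichannels of adjacent cells dock to form gap junctions that pass ions and small metabolites. The alpha connexins include Gja1 (Cx43), the main connexin of fibroblasts, and Gja4 (Cx37) and Gja5 (Cx40), best known from endothelium. The beta connexins include Gjb2 (Cx26) and Gjb6 (Cx30), which act together in the cochlea and in epithelia, and Gjb5 (Cx31.1), a connexin of keratinocytes. Fibroblast gap junctions are widely studied in relation to cell contact, which was the variable of the cultures described here.

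The share of features well above background per channel ran from 52.8% to 67.7%, with the highest value on the first KO array. This array also gave more detected connexin probes, with 6 of 11 well above background in at least 1 channel, against 3 of 11 on the second KO array. The Lats2 signal went against the genotype label at 3 of 4 probes, which read higher on the KO arrays by 1.19 to 1.39 (log2) in low density channels and by 0.91 to 1.49 in high density channels. The remaining Lats2 probe was lower there, by log2 values of -0.63 and -1.26. The deleted stretch is not given in the sources used here, so the names KO and WT refer to labels throughout. The paper presents a western blot for Lats2 in knockout MEFs as its check, and protein was not measured on these arrays. The WT arrays shared 1 slide and the KO arrays lay on 2, scanned on different days, so slide and scan day cannot be told apart from the genotype label. All 10 fibroblast markers examined, among them Col1a1, Vim and Pdgfra, were well above background in all 8 channels.

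Gjb2 carried the widest changes, Gjb6 lies next to it in the genome and was not detected, and Gja1 was, among connexins tested for density in both labels, the one whose values differed most between them. The 300 bases around the annotated start of these 3 genes (250 before it and 50 after) are therefore shown, 5′ to 3′ on the gene's strand, from RefSeq on GRCm38.p6. Capitals mark matches, on either strand, to any of 4 motifs, which did not overlap one another in these sequences. The motif GGAATG is the core bound by TEAD factors. AP-1 factors bind TGANTCA. The GC box is GGGCGG. The TATA box was searched as TATAAA.
Gjb2, chr14:57104653-57104952, minus strand: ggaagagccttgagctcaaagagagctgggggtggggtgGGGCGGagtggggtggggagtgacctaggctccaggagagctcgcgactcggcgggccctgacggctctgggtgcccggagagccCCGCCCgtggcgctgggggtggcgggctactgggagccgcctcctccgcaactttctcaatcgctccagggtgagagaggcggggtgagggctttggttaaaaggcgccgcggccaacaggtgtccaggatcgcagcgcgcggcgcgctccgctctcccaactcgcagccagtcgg
Gjb6, chr14:57133562-57133861, minus strand: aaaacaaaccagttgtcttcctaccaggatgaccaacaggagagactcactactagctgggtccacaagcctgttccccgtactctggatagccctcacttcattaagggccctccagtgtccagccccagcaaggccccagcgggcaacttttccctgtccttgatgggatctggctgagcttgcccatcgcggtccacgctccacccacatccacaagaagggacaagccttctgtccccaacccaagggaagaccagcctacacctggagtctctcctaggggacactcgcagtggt
Gja1, chr10:56377050-56377349, plus strand: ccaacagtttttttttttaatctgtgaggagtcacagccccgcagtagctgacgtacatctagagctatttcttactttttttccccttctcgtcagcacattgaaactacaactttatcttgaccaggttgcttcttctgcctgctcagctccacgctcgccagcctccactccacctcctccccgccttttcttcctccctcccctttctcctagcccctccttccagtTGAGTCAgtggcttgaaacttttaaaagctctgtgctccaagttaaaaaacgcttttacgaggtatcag

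The Gjb2 window held 2 GC boxes, beginning at positions -211 and -126 from the start site, 27 CpG dinucleotides and 70.0% G and C. Over all 32851 promoters of the same length the median was 7.0 CpG dinucleotides and 52.67% G and C, and 35.7% held a GC box. The Gjb6 window held none of the 4 motifs, with 6 CpG dinucleotides and 57.33% G and C. The Gja1 window held 1 AP-1 match beginning at position -19, a motif found in 7.81% of all promoters. The core motif of TEAD factors, the DNA-binding partners of YAP and TAZ, was found in 14.7% of all promoters and in none of the 6 connexin windows. Gja4 and Gja5 each had 1 GC box, at positions -79 and -17, and Gjb5 had 1 TATA box match at position -243, a motif found in 13.6% of all promoters. A match describes letters in the window and nothing about binding.

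Gjb2 was the connexin that differed most between densities in WT and between genotype labels. Its brighter probe, A_52_P382886 (mm8 chr14:56052902-56052961, minus strand), read 13.33 in Cy3 and 13.42 in Cy5 in the WT cultures at low density, as normalised log2 intensity. In the WT cultures at high density the same probe read 8.25 in Cy3 and 8.09 in Cy5. In the KO cultures it read 5.90 and 5.89 at low density and 6.25 and 6.06 at high density, and in none of these 4 channels was it well above background. The 3 levels were thus far apart, with the WT low density channels highest, the WT high density channels between, and the KO channels at background.

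In the WT cultures the Gjb2 signal was 36.9-fold lower at high density, with log2 ratios of -5.24 and -5.17 on the 2 arrays and a mean of -5.20. The values of the arrays lay 0.04 on either side of that mean, against an SD of 0.10 for that quantity over all probes tested in WT. Of 22591 probes tested for density in WT, 1 had a lower value. With the KO channels held at a floor, Gjb2 was 163-fold higher on the WT arrays at low density and 4.04-fold higher at high density. For this, each KO channel was set to the higher of the probe's own signal and the lowest signal that any detected probe gave there. At high density the probe's own signals were the higher, so 4.04-fold is the measured value. Probes not well above background can read above that floor, so these folds are not strict bounds. The measured log2 ratios of KO over WT were -7.43 (Cy3) and -7.53 (Cy5) at low density, with a mean of -2.01 at high density. The density ratio in KO, 0.16 and 0.36 on the 2 arrays, joined a pair of signals that were not well above background, and no difference between the density effects was taken from it.

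The second Gjb2 probe, A_51_P267622 (mm8 chr14:56054340-56054399), lies 1.379 kb away and read in the same direction. It read 7.26 and 7.45 in the WT low density channels, the only ones where it was well above background, and between 5.85 and 6.28 in the other 6. At low density in WT it was 2.19-fold above the high density level and 2.51-fold above the KO level, with undetected channels held at the floor. Both folds depend on that floor, so the size of the change is not compared between the probes.

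**Figure D1:**
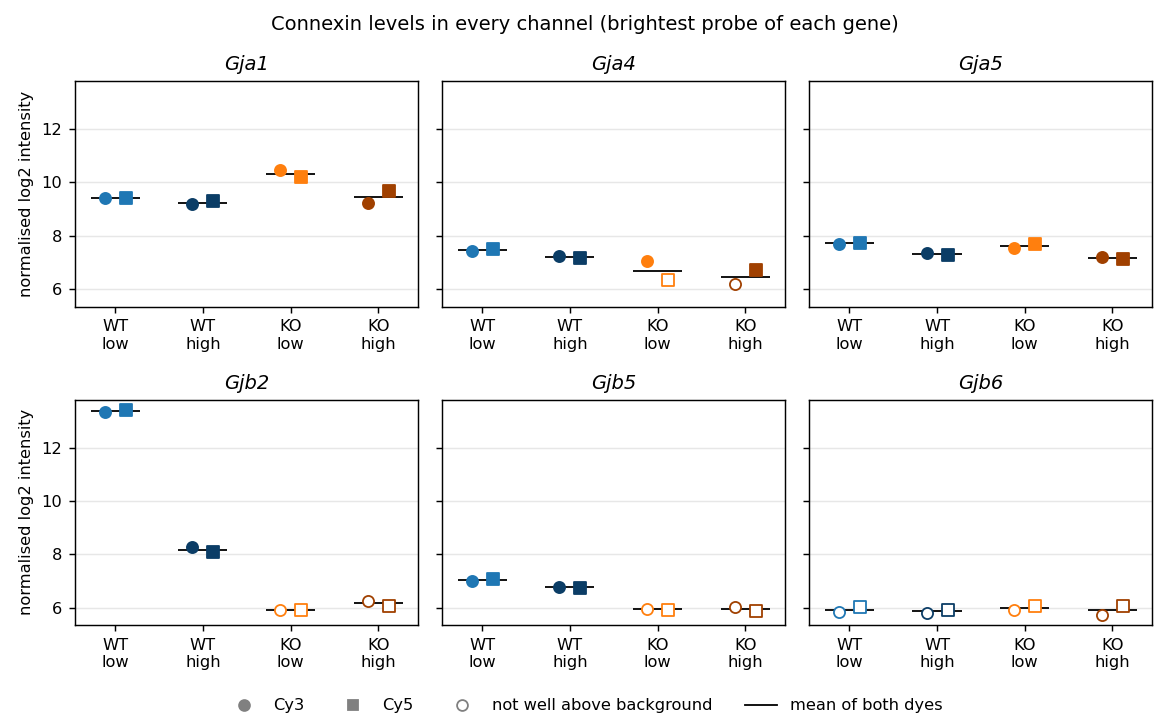
Normalised log2 intensity of the brightest probe of each connexin (vertical axis) in the WT and KO cultures at low and high density (horizontal axis), with circles for Cy3, squares for Cy5, open symbols where the probe was not well above background and lines for the mean of both dyes. Gjb2 goes from a mean of 13.37 in WT at low density to 8.17 at high density with open symbols in KO, while Gja1 is filled in all 8 channels and highest in KO at low density.

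Gjb5 was detected only in the cultures labelled WT, like Gjb2, with WT levels that lay much closer together between densities. Its probe (A_51_P385639, mm8 chr4:126857725-126857784, minus strand) read 6.99 and 7.08 in the WT low density channels and 6.78 and 6.74 in the WT high density channels. In the KO cultures it read 5.95 and 5.92 at low density and 6.02 and 5.88 at high density, none of them well above background. The WT and KO channels did not overlap at either density. With the KO channels held at the floor, the WT signal was 2.01-fold above KO at low density and 1.66-fold at high density. The measured KO over WT ratio at low density was -1.10, and -0.98 without scaling between arrays, which is under 2-fold. It was -2.09 at an offset of 10 and -4.30 with Agilent processed signals. At high density it was -0.81, and it passed the limit at an offset of 10 (-1.59) and with Agilent processed signals (-3.80). The density ratio in WT was -0.28 on the log2 scale, with -0.25 and -0.30 on the 2 arrays, which is under the 2-fold size used to call a change. It reached -0.46 at an offset of 10, -0.75 with Agilent processed signals and -0.79 in the deposited series matrix.

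Gjb6 was not well above background in any of the 8 channels at either of its 2 probes (mm8 chr14:56077499-56077558 and chr14:56078290-56078349), the brighter of which lies 25.3 kb from the Gjb2 probe. Its signals lay between 5.73 and 6.17 (log2), and its ratios over all densities and labels between -0.17 and 0.19. No fold is given for Gjb6, since both sides of every ratio were at background. The large Gjb2 signal in WT at low density was therefore not accompanied by a detectable signal of its genomic neighbour on these arrays.

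Gja1, the fibroblast connexin, was detected in every one of the 8 channels. It was read by 10 features of 1 probe (A_52_P174915, mm8 chr10:56078423-56078482, plus strand). In the WT cultures the probe read 9.42 (Cy3) and 9.43 (Cy5) at low density and 9.18 and 9.29 at high density. In the KO cultures it read 10.48 and 10.19 at low density and 9.21 and 9.67 at high density. The KO low density channels stood above all others, and the KO high density channels overlapped the WT range.

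The density ratio of Gja1 was -0.19 in WT (-0.13 and -0.25 on the 2 arrays) and -0.90 in KO (-0.81 and -0.98), a fold of 1.14 and 1.86 respectively, lower at high density. Over the 10 features the SD of the ratio was between 0.036 and 0.044 per array, smaller than the gap between the arrays of a pair. The KO and WT ratios did not overlap and differed by -0.71, with -0.69 in one dye orientation and -0.73 in the other. At low density Gja1 was 1.88-fold higher in KO (log2 1.06 in Cy3 and 0.76 in Cy5), and at high density the difference was 0.20 (0.03 in Cy3 and 0.38 in Cy5). None of these Gja1 means reached 2-fold, though the Cy3 value at low density did, as did the mean at low density without scaling between arrays (1.17). At high density the KO over WT values of the dyes differed by more than their mean.

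Gja4 gave a signal in all 4 WT channels and in both channels of the first KO array, but in neither channel of the second KO array. The WT channels of its probe (A_52_P117352, mm8 chr4:126813908-126813967, minus strand) read 7.44 and 7.49 at low density and 7.24 and 7.16 at high density. The KO channels read 7.05 and 6.33 at low density and 6.20 and 6.70 at high density, the higher value of each pair coming from the first KO array. All KO values were below all WT values, with mean log2 differences of -0.77 (low density) and -0.75 (high density). These are measured differences, since 1 of the 2 KO channels at each density was not well above background. They depended on how dim signals were treated, with -1.16 and -1.21 at an offset of 10 and -2.18 and -2.53 from Agilent processed signals, all past the 2-fold limit. The difference at low density was -0.38 in Cy3 and -1.16 in Cy5, so its size differed between the KO arrays. The density ratio of Gja4 in WT was -0.26.

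Gja5 had 4 probes that did not read alike. The brightest, A_52_P496163 (mm8 chr3:97161599-97161658), was designed on a cDNA clone 22.7 kb from the nearest probe of the RefSeq transcript and was detected in all 8 channels. It read 7.69 and 7.74 in WT at low density and 7.37 and 7.27 at high density. In KO it read 7.54 and 7.71 at low density and 7.22 and 7.12 at high density. The low density channels lay above the high density channels in both labels, with log2 ratios of -0.40 in WT and -0.45 in KO. KO over WT was -0.10 for low density and -0.15 for high density. Without scaling between arrays these were 0.12 and 0.06, so their sign depended on the scaling.

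The 2 probes designed on the RefSeq transcript of Gja5 were well above background in 3 of 16 channels, all 3 on the first KO array. Their signals lay between 5.89 and 6.26, and their ratios between -0.16 and 0.16. The last probe carrying the Gja5 symbol, A_52_P612636, lies 1.36 Mb from them at mm8 chr3:98497154-98497213. It was lower at high density in KO by a log2 ratio of -0.54, with -0.64 and -0.44 on the 2 arrays. Its KO high density Cy3 channel was not well above background, and in WT it did not pass the filter for density. KO over WT at low density was 0.29 at this probe. Detection at the Gja5 symbol therefore came mainly from probes outside the RefSeq transcript probes, and its values are those of the array annotation.

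**Figure D2:**
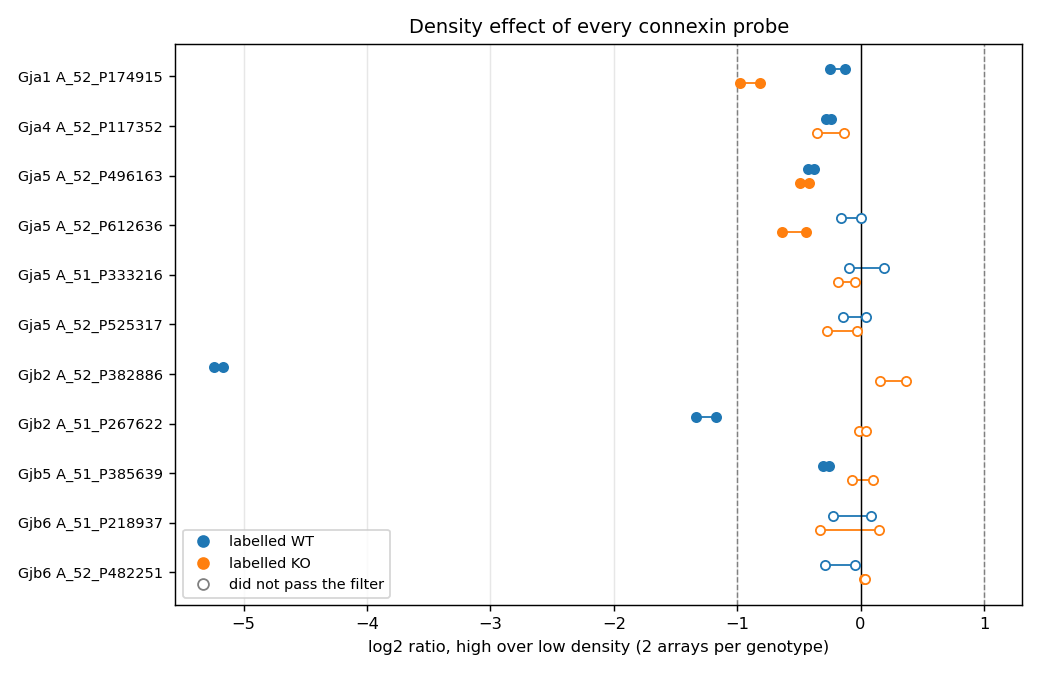
Log2 ratio of high over low density (horizontal axis) for each of the 11 connexin probes (vertical axis), with 1 point per array, a line joining the 2 arrays of a label, open points where the probe did not pass the filter and dashed lines at 2-fold. Both Gjb2 probes lie beyond the lower 2-fold line in WT, and the Gja1 ratios of KO, at -0.81 and -0.98, lie apart from those of WT.

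By gene, a change was called when the mean log2 ratio of the brightest probe was 1 or more in either direction and both arrays (or dyes) gave one sign, after dim probes were left out. With density in WT, 5 of 6 connexins were tested and 1 was called, Gjb2, which was lower at high density. The median log2 ratio of the 5 was -0.28. Over all probes tested in WT, 13.3% were called and 5.72% were called lower, with a median of 0.01. With density in KO, 2 of 6 connexins were tested, Gja1 and Gja5, none was called, and 9.62% of all probes were. For the difference between the density effects, KO minus WT, none of the same 2 connexins was called, against 8.0% of all probes. Between labels at low density, 5 connexins were tested and 2 were called lower in KO, Gjb2 and Gjb5, where 13.9% of all probes were called and 7.05% were called lower. At high density 1 of 5 was called lower in KO, Gjb2, where 13.0% of all probes were called and 6.61% were called lower. Connexins that passed only through the WT channels could read no other way than lower in KO, and the genes were picked with these contrasts known, so these shares are printed side by side without a reading.

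**Figure D3:**
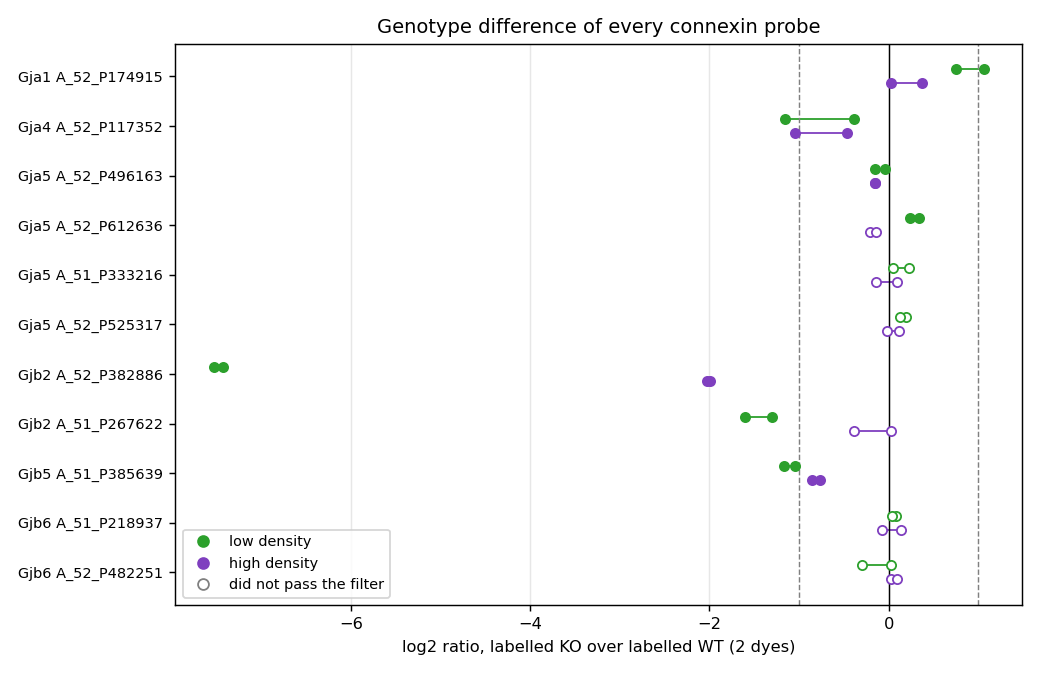
Log2 ratio of KO over WT (horizontal axis) for each of the 11 connexin probes (vertical axis) at low and high density, with 1 point per dye, a line joining the dyes, open points where the probe did not pass the filter and dashed lines at 2-fold. Gjb2 and Gjb5 lie beyond the lower line at low density, Gja1 lies to the right with a mean of 0.91, and the 2 dyes of Gja4 lie far apart.

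Beside the 6 members, 10 further connexins on the array were read, of which 5 were not well above background in any channel. Those that passed the filter numbered 2 for density in WT, 3 for density in KO, 3 between labels at low density and 2 at high density, and none was called in any of these contrasts.

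Gja7, now named Gjc1 (Cx45), was well above background in all channels at 2 probes and passed no 2-fold limit. Its brighter probe read 11.98 and 12.12 in WT at low density and 11.69 and 11.76 at high density. In KO it read 11.18 and 11.38 at low density and 11.54 and 11.44 at high density. The Gja7 ratios for density were -0.32 in WT and 0.21 in KO, and at the second probe -0.42 and 0.18. Gja3, a lens connexin, was well above background only at low density, in both labels, at 1 of its probes (A_52_P17582). With undetected channels held at the floor, it was 1.34-fold above high density in WT and 1.66-fold in KO, where 1.66 is the measured value.

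Among the pannexins, which form single-membrane channels, Panx1 was detected in all array channels at its brighter probe and in none at its second probe (A_52_P681332). Its brighter probe read 9.11 and 9.11 in WT at low density and 8.55 and 8.44 at high density, against 9.77 and 9.90 and then 9.44 and 9.15 in KO. Its density ratios were -0.62 in WT and -0.54 in KO, and its KO over WT differences 0.73 at low density and 0.80 at high density. Panx3 was well above background on the KO arrays alone. With the WT channels held at the floor, its KO signal was 1.30-fold above WT at low density and 1.08-fold at high density.

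**Figure D4:**
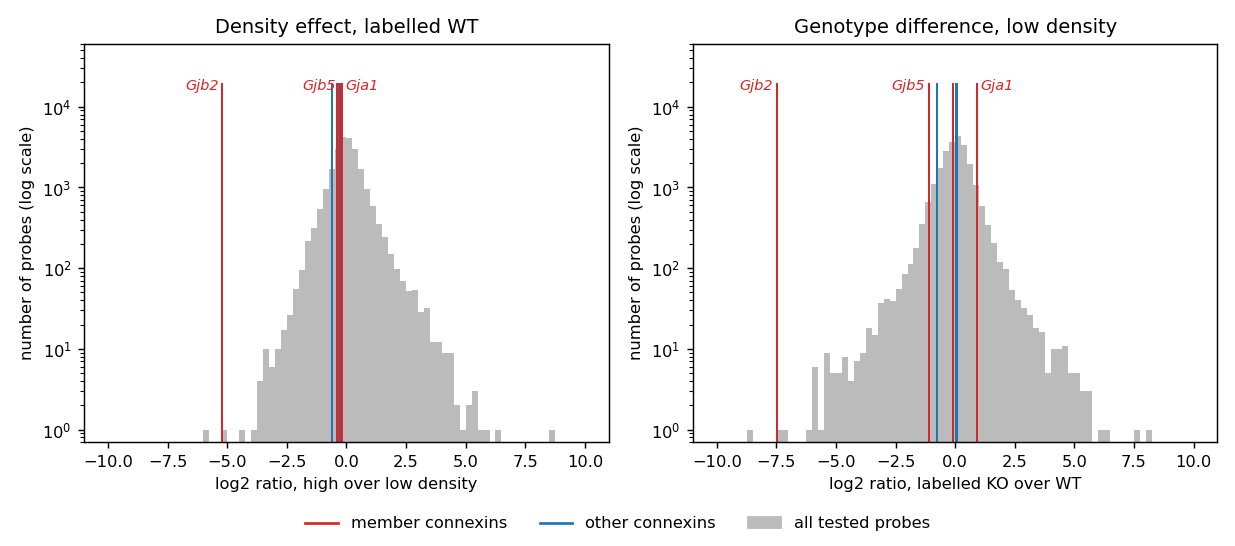
Number of tested probes (vertical axis, log scale) by log2 ratio (horizontal axis, bins of 0.25) for density in WT on the left and for KO over WT at low density on the right, with red lines for the brightest probe of each member connexin tested and blue lines for the further connexins read that were tested. Gjb2, at -5.20 and -7.48, stands to the left of the bulk, and the other connexins drawn lie inside it.

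Of 12 listed genes whose products bind connexins or take part in their turnover, 11 were on the array and all 11 were tested. With density in WT, 3 of the 11 were called, namely Nov (3.59) and Sqstm1 (1.20), which were higher at high density, and Cav1 (-1.11), which was lower, with a list median of -0.18. Nov encodes CCN3, a secreted matricellular protein that binds the tail of Cx43, Sqstm1 the autophagy receptor p62 and Cav1 caveolin-1. In KO 1 was called, Nov, which was higher at high density and whose low density signal was not well above background there, and the median was -0.09. Tjp1, which encodes ZO-1, the scaffold of Cx43 plaques, had log2 ratios of -0.52 in WT and -0.09 in KO. The difference between the density effects reached the 2-fold limit for 3, Dbn1 (1.59), Sqstm1 (-1.10) and Nov, of which no difference is read for Nov because its KO signal at low density was at background, and the median of the list was 0.11.

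Between labels, Cdh2 (N-cadherin) was higher in KO at both densities, by log2 values of 1.28 and 1.05. At low density Sqstm1 (1.06) was called as well, and at high density Nedd4 (1.51), a ubiquitin ligase of Cx43, Dbn1 (1.02), an actin-binding partner of Cx43, and Nov (-2.51). The second Nedd4 probe (A_52_P648424), also detected in all 8 channels, gave 0.23 at high density, so the Nedd4 call rests on 1 of 2 probes. The list medians were 0.21 at low density and 0.23 at high density. Of 8 kinases known to phosphorylate connexins, none was called with density in either label (medians 0.16 in WT and -0.13 in KO), and 1 was called between labels, Mapk3, at -1.05 at high density. The second Mapk3 probe (A_51_P158628), also detected in all 8 channels, gave -0.99 there, just under the limit.

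Markers of fibroblasts and of other cell types were read beside these values. Of 10 fibroblast markers, 6 were called with density in WT (4 higher and 2 lower at high density) and 7 in KO, all higher. Between labels, 3 were called at low density (2 higher and 1 lower in KO) and 5 at high density, all higher in KO, with medians of 0.18 and 1.04. KO over WT was 4.46 (low density) and 3.10 (high density) for Pdgfra, and 2.93 and 3.48 for Dcn. Of 7 smooth muscle and pericyte markers, 4 were detected in all channels, and all 4 were called lower at high density in WT, with Cnn1 at -3.71, Tagln at -2.66, Cspg4 at -1.89 and Acta2 at -1.85. In KO, 2 of 6 tested were called lower, Cnn1 (-1.34) and Cspg4 (-1.48), with a median of -0.36, and 3 of 4 were called for the difference between the density effects, with a median of 1.87. Between labels, Cnn1 alone of 6 tested was called at low density (-5.47, list median -0.51), and at high density Cnn1 was called lower in KO (-3.10) and Tagln higher (1.76), with a median of 0.41 over 5. The summed signal of this list ran from 254358 to 574323 in the WT low density channels, from 29869 to 141138 in WT at high density, from 223146 to 520781 in KO at low density and from 65725 to 360070 in KO at high density, while Des was at background. Of 10 epithelial and keratinocyte markers, Cdh1, Cldn4 and Krt8 were at background in all channels, 2 were detected in all, and none was called in any contrast. Krt18 was well above background only in the WT low density channels, as were the second Gjb2 probe and the brighter probe of the endothelial marker Kdr. Krt15 was detected only at high density, in both WT channels and 1 KO channel. The density ratios of Krt14 and Sfn in WT were 0.06 and -0.27. The summed signal of the list, carried mostly by Sfn, ran from 3783 to 14689 in the WT channels and from 5211 to 17177 in the KO channels. Of 9 endothelial markers on the array, Pecam1, Cdh5, Emcn and Tie1 were at background in all channels, and Egfl7 alone was detected in all, with -2.33 for KO over WT at high density and 1.18 for density in WT, the only endothelial calls in those contrasts. Their summed signal ran from 288 to 1006 in the WT channels and from 159 to 384 in the KO channels. Of 5 glial markers, 1 was called between labels at low density and 2 at high density, and of 6 macrophage markers 2 were called at each density. These calls went both ways. Mbp and Lyzs were called higher in KO at both densities, Cd14 was called lower at both (-1.79 and -1.59) and S100b lower at high density (-2.44). The markers Gfap, Emr1 and Ptprc were at background. The summed signal of the macrophage list ran from 384 to 951 in the WT channels and from 1039 to 7603 in the KO channels, and that of the glial list from 151 to 3661 and from 1601 to 6302. The part of any of these markers in the connexin values was not tested.

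Likeness of profile was measured as the root mean square difference of the 4 condition means, each profile centred on its own mean, among the 19501 probes detected in all 8 channels. The genes closest to Gja1 were BU509986 (0.02), Aldoa-ps1 (0.02) and Rpl36al (0.02), in log2 units. For Gjb2 the 3 closest candidates were Cnn1 (calponin) at 0.81, Nes (nestin) at 1.07 and Col2a1 (type II collagen) at 1.18. Because Gjb2 was at background in KO, the requirement of detection in all channels left out any gene detected, like it, in WT alone, so its distances are not comparable with those of Gja1. Relative to its own mean, Cnn1 stood at 4.00 in WT at low density, 0.29 in WT at high density, -1.47 in KO at low density and -2.82 in KO at high density. The corresponding Gjb2 values were 4.97, -0.23, -2.50 and -2.24, the last pair resting on signals at background. These are distances over 4 conditions and carry no test.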

How the data were processed

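Low and high density RNA of MEFs labelled KO or WT was hybridised to 4 Agilent 2-colour arrays, 2 per label with exchanged dyes. Per the labels and file headers, the authors extracted the arrays with Agilent Feature Extraction 10.5.1.1, and the deposited files hold raw and processed spot intensity, quality flags (as 0 or 1 score values) and a log10 ratio of Cy5 to Cy3. The deposited series matrix holds the same log10 ratio, rounded and turned to high over low density, with a median of 0 in each column. Members, lists and rules were chosen with earlier results of these data known.

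Raw intensity was corrected by normexp (offset 50) and loess in limma 3.58.1 (R 4.3.3, data.table version 1.17.8), which shrinks ratios of dim probes. Features of a probe were averaged, control and outlier-flagged spots left out, and log2 ratios averaged over the dye swap. Single channels were scaled by Aquantile for KO over WT, within each dye. A probe passed the filter if flagged well above background on both arrays of the contrast for at least 1 density, or in both dyes for at least 1 label. The brightest probe stood for a gene. All members, Lats2, list genes past 2-fold and the 3 genes closest in profile were to be named. Gja3, Gja7, Panx1, Panx3, Tjp1, Prkcd, Krt14, Krt15, Krt18, Sfn and Kdr were named after their values were seen. The call rule was tested on simulated data with changes of known size. Lists were written from general knowledge, with names as on the array, and some of their genes are not reported here and are left out of the counts, and current names came from RefSeq. Probe positions are on mm8, promoters on GRCm38.p6, and neither was converted. Python 3.11.15, pandas 2.3.3, numpy 2.4.6 and matplotlib 3.10.9 were used. Precision is limited by the number of arrays.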

Additional observations from a re-analysis of the deposited data

Results flagged for a closer look

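The connexins, pannexins and genes of connexin binding, turnover and phosphorylation tested for density in both labels numbered 24. In 4 of the 24 the density effect had one sign on both WT arrays and the opposite sign on both KO arrays. The same held for 14.5% of all 21546 probes tested, so the share in these genes (16.7%) lies near that of all probes. The difference, KO minus WT, was not tested in any of them, since each label had 1 replicate. Gja7 differed by 0.54 (log2), with -0.22 and -0.43 on the WT arrays and 0.26 and 0.16 on the KO arrays. Dbn1 differed by 1.59, with -1.01 and -0.90 on the WT arrays and 0.53 and 0.73 on the KO arrays. Prkcd, a protein kinase C, differed by -0.86, with 0.56 and 0.54 on the WT arrays and -0.32 and -0.31 on the KO arrays. Mapk3 differed by -0.49, with 0.28 and 0.43 on the WT arrays and -0.21 and -0.06 on the KO arrays. Of the 6 member connexins, Gja1 and Gja5 were tested in both labels and neither met this condition. Gjb2 had negative ratios on both WT arrays and positive ones on both KO arrays (0.16 and 0.36), but its KO signals were not well above background.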

How the results depend on the processing

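The count of members called with density in WT was 1 under every alternative run. With density in KO it went from 0 to 1 under median centring in place of loess, where Gja1 reached -1.07, and to 1 at 1.4-fold. The difference between density effects went from 0 to 1 with no filter on dim probes and to 1 at 1.4-fold. At low density the count between labels went from 2 to 0 when every channel had to be well above background, to 4 at 1.4-fold, and to 3 with Agilent processed signals and an offset of 10. Without scaling between arrays it stayed at 2, with Gja1 (1.17) called and Gjb5 (-0.98) not. At high density it went from 1 to 3 with Agilent processed signals, with an offset of 10 and at 1.4-fold, and to 0 when every channel had to be well above background. Calls over all probes rose as well, from 3249 to 6310 (processed signals) and 4599 (offset 10) at low density and from 3076 to 5903 and 4305 at high density. Calls over all probes were not counted at 1.4-fold, under other filters on dim probes, without scaling between arrays or with arrays left out. The member counts under those settings therefore have no share of all probes to be read against. For KO over WT and for the difference between density effects, leaving out 1 array also removed the other label's array in that dye orientation. Each such value rests on 1 dye orientation, where the rule of one sign is always met. At low density this gave 3, adding Gja4 (-1.16) without replicate 1 of both labels and Gja1 (1.06) without replicate 2. At high density it gave 2 without replicate 1, adding Gja4 (-1.05), and 1 without replicate 2. Of 199 member values recomputed, some of them identical for this reason, 194 kept their sign, and the other 5 were differences of Gja5. The density ratios in WT ran from -0.62 to -0.24 for Gja4, from -0.72 to -0.38 for Gja5 and from -0.79 to -0.25 for Gjb5. The Gjb2 density ratio in WT ran from -5.70 to -3.23. Its KO over WT value ran from -11.75 to -4.46 at low density and from -4.16 to -1.84 at high density. The smallest sizes are means over both Gjb2 probes, except at high density, where the smallest came without scaling between arrays. The largest come from values that the scanner software had processed. Median centring moved the share of higher among all called probes from 57.1% to 43.9% in WT and from 61.3% to 40.3% in KO, and the median of all probes in KO from 0.01 to -0.09. The methods' t-test was not run, because it could not be fitted with 1 replicate. No paired analysis was possible because the replicate numbers mark the dye orientation of 1 replicate per label. Nothing here is limited by read depth, and signal over background sets which members could be measured.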
